A study of Mus musculus with 24 samples.

Results

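Nes, Vim, Sox2, Sox9, Pax6, Fabp7, Prom1 and Msi1 are genes commonly used to mark neural stem cells and radial glia. They were picked by symbol, each had 1 entry in every library, and together they were 8 of 26636 gene symbols measured. The RNA came from neural progenitor cells of C57BL/6 mouse cortex at embryonic day 12, grown with basic fibroblast growth factor at 10 ng/ml and B27 supplement at 2% and used at passage 3. In every group the cells were then in differentiation medium with a JQ1 enantiomer for 12 or 24 h. (+)-JQ1 is the active inhibitor of BET proteins, the bromodomain readers of acetylated histones, and (-)-JQ1 is its mirror image, which the labels call inactive. Each enantiomer was given at 0.2 or 0.5 µM, so there were 8 groups, each of 3 libraries from 3 independent cell preparations, and 24 libraries in all. No library of untreated cells or of cells before the change of medium was analysed here, so (-)-JQ1 at the same dose and time was the control throughout. The cells are a primary mixed culture, and in bulk RNA fewer cells of a type and less RNA per cell cannot be told apart.

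Radial glia are the stem cells of the embryonic cortex. Their processes span the cortical wall, they divide at the ventricle to make neurons first and astrocytes and oligodendrocytes later, and basic fibroblast growth factor keeps cells like them dividing in culture. The markers cover several parts of this cell: Nes (nestin) and Vim (vimentin) are intermediate filament proteins, Sox2, Sox9 and Pax6 are transcription factors, Fabp7 is a fatty acid carrier of radial processes, Prom1 (prominin-1, CD133) is a membrane protein of apical protrusions, and Msi1 (musashi-1) is an RNA-binding repressor of translation. Several of them, among them Vim, Sox9 and Fabp7, are also made by astrocytes.

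All 8 genes were present in every library. Values are FPKM, fragments scaled to transcript length and to the number of mapped fragments, so levels can be compared between genes. Fabp7 was the most abundant with a mean of 2528 FPKM over the 24 libraries, and its mean was above that of 99.9% of the 13801 genes that reached at least 1 FPKM in at least 3 libraries and were tested. Vim followed with a mean of 1386 FPKM, Sox2 with 256, Sox9 with 129.5, Nes with 91.8, Msi1 with 40.8 and Pax6 with 23.6 FPKM. Prom1 was by far the lowest, at 4.64 FPKM, above only 31.0% of tested genes. The order of the means of neighbouring genes was clear of the spread over libraries for some neighbours only. The range of Sox2 (192 to 369 FPKM) lay wholly above that of Sox9 (83.3 to 164), whereas the ranges of Sox9 and Nes (58.0 to 149) overlapped. Within each single library Sox9 was still above Nes. The closest values were 150.5 and 149.4 FPKM, in the third (+)-JQ1 library of 0.5 µM and 12 h.

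The cells expressed genes of glial lineages beside the stem cell markers, and most markers of cells from outside the neural lineage were low, with the exception of Acta2. The (+)-JQ1 libraries had a lower summed level of the 14 oligodendrocyte lineage genes (554 to 1610.3 FPKM) than the (-)-JQ1 libraries (2009.7 to 3078 FPKM). Of 10 microglia, 9 endothelium and 7 erythroid markers, 9, 8 and 7 stayed under 1 FPKM in all 24 libraries, and 3, 2 and 5 of them were at 0. The 10 pericyte and fibroblast markers summed to 24.4 to 69.0 FPKM in (+)-JQ1 and 63.0 to 159 FPKM in (-)-JQ1 libraries, with 1 marker at 0. Most of that sum was Acta2, smooth muscle actin, at 21.4 to 145 FPKM with a mean of 65.6 FPKM, which is above the means of Msi1 and Pax6. Acta2 is also a gene picked by the naming rule given below, with a log2 fold change of -2.29 at 0.5 µM and 24 h. The 9 ependyma and choroid plexus markers summed to 3.29 to 9.21 FPKM in (+)-JQ1 and 10.9 to 36.0 FPKM in (-)-JQ1 libraries, with 6 markers under 1 FPKM and 0 of the 9 at 0 in all libraries. The part of these cell types in the results below was not tested. Both readouts of BET inhibition moved in every comparison of (+) with (-)-JQ1: Hexim1, an inhibitor of transcription elongation, rose by log2 1.30 to 1.88, and Myc fell, with log2 fold changes from -1.13 to -2.14.

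A pair of libraries stood apart, and both belong to the groups of 0.2 µM and 24 h. A microRNA gene, Mir5105, took 42.7% of the summed FPKM in the first (-)-JQ1 library and 46.9% in the second (+)-JQ1 library of those groups, against at most 6.69% in the other 22. In both of these libraries Nes, Sox2 and Sox9 were the lowest of their group, and Fabp7, Prom1 and Msi1 were the highest of their group. The values at 0.2 µM and 24 h are therefore given with and without them.

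The promoters of the 4 members that span the results, 3 that rose and 1 that fell, are shown so that their letters can be compared. RefSeq start sites were found for 6 of the 8 members, in build GRCm38.p6, while the expression values were made on mm9, so the positions below belong to the RefSeq build only. Each line gives the 250 bases before the start of the gene, 5′ to 3′ on the gene's strand, and capitals mark motif letters found on either strand: CCAAT of the factor NF-Y, the TATA box TATAAA, the Sp1 core GGGCGG and the AP-1 site TGANTCA, where N is any base. Sox9 and Msi1 are named only.
Nes, chr3:87970843-87971092, plus strand: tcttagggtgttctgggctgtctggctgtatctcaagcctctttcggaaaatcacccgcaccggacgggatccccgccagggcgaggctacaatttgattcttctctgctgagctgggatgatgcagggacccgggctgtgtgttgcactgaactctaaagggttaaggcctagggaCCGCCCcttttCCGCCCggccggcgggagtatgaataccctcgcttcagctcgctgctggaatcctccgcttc
Vim, chr2:13574061-13574310, plus strand: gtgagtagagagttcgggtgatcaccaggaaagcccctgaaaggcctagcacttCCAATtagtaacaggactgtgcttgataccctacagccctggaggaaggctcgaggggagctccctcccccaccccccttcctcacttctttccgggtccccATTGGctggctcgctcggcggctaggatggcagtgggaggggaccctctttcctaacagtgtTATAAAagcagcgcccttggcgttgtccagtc
Fabp7, chr10:57784673-57784922, plus strand: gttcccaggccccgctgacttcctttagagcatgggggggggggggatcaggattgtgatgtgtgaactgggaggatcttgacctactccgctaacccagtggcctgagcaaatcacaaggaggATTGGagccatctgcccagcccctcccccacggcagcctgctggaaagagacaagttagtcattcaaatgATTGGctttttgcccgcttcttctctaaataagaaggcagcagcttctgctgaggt
Prom1, chr5:44101737-44101986, minus strand: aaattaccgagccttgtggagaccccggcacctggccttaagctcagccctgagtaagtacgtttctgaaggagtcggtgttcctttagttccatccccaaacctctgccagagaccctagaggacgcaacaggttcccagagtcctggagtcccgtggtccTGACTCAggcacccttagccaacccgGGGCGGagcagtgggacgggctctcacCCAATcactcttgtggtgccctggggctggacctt
CCAAT was in a window of 5 of the 6 matched members (Vim, Fabp7, Prom1, Sox2 and Pax6) and in 33.8% of 32851 promoter windows of the same length. Pax6 and Prom1 had 2 start sites each, and CCAAT was in the window of the first only. A member is counted here if any of its windows holds the motif, while the shares count single windows. The 2 kinds of figure are therefore not on the same footing. Vim holds it with its first base at -196 and, as ATTGG, at -94 from the start, Fabp7 as ATTGG at -126 and -56, and Prom1 at -35. Nes was the matched member without CCAAT; it holds GGGCGG as CCGCCC at -73 and -62. GGGCGG was also in Prom1 and Sox2, and in 32.7% of all windows. TATAAA was in Vim alone among the matched members, at -32, and in 12.4% of all windows, and TGANTCA was in Prom1 alone, at -88 in the printed window, and in 6.75% of all windows. CACGTG, the E-box of Myc and Max, was in 0 of the 6 and in 6.02% of all windows. None of these motifs was in all 3 printed promoters of genes that rose. A match is a description of the letters only, and nothing follows from it about binding.

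(+)-JQ1 against (-)-JQ1 at matched dose and time asks what blocking BET proteins does to these markers. The 8 genes did not move as a block. Sox9 rose throughout, Nes and Vim rose in all but 0.2 µM and 24 h, and Fabp7 and Pax6 rose in fewer of the comparisons. Sox2 was not called in any. Msi1 fell in all but 0.2 µM and 24 h, and Prom1 was called lower at 24 h only. At 0.2 µM and 12 h 4 of the 8 passed (3 up, 1 down), where 27.9% of all tested genes passed (8.23% up and 19.6% down). The count was 5 at 0.5 µM and 12 h (4 up, 1 down), where the share of all genes was 38.3% (12.2% up and 26.1% down). It was 2 at 0.2 µM and 24 h (1 up, 1 down), beside 32.8% of all genes (11% up and 21.8% down). It was 7 at 0.5 µM and 24 h (5 up, 2 down), beside 38.2% (13.7% up and 24.5% down). The median log2 fold change of the 8 was 0.32, 0.42, 0.25 and 0.48 in that order, and of all tested genes -0.07, -0.10, -0.07 and -0.05. Fold changes are differences of log2(FPKM + 1), tested with limma and Benjamini-Hochberg adjustment over all tested genes, and a gene was called at an adjusted p under 0.05.

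**Figure D1:**
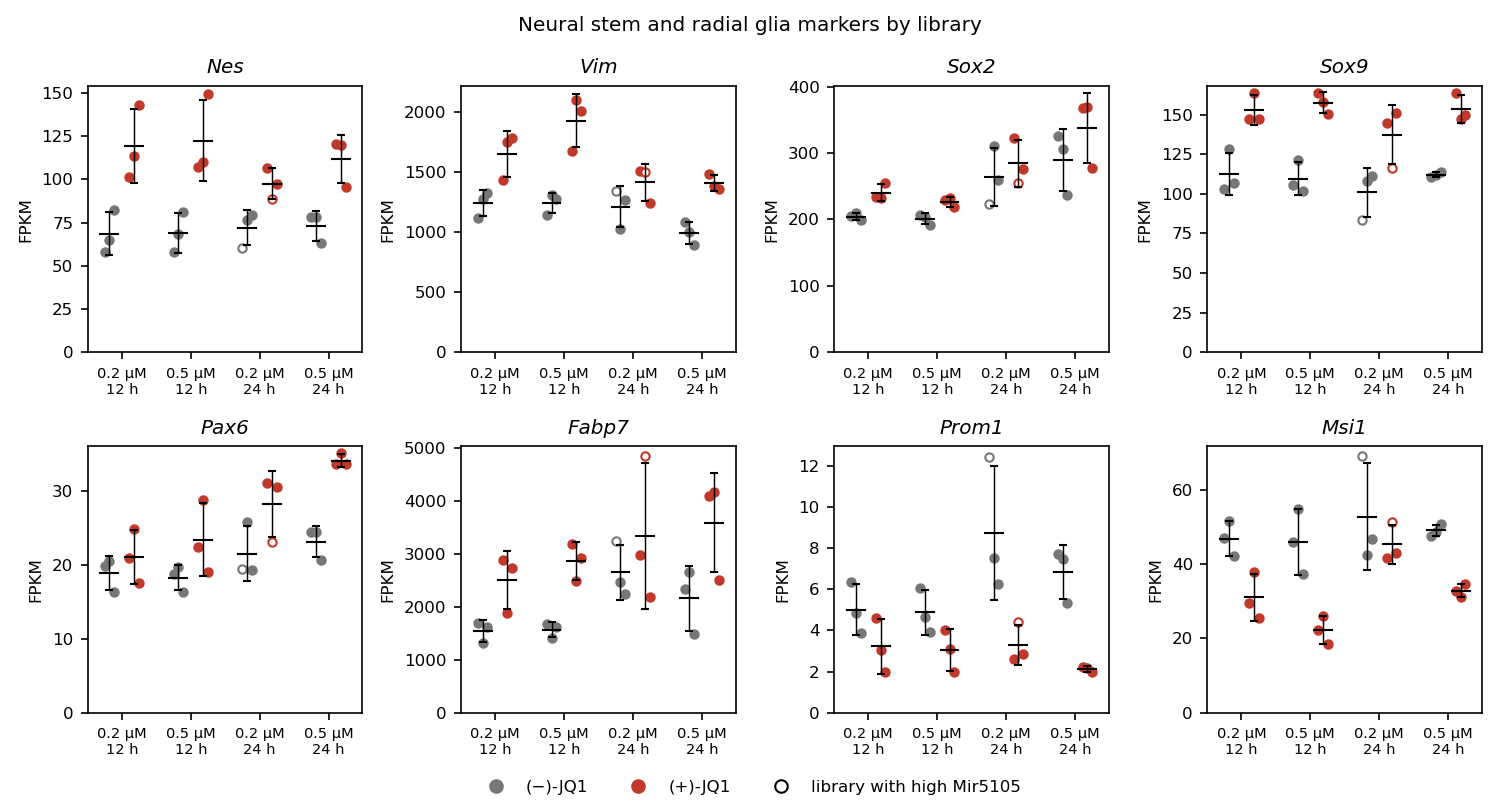
FPKM of each marker (vertical axes, from 0) in every library of the 4 combinations of dose and time (horizontal axes), with (-)-JQ1 in grey and (+)-JQ1 in red; bars are the mean and SD of 3 libraries and open circles are the 2 libraries with high Mir5105. Nes lies higher in every (+)-JQ1 library (88.8 to 149 FPKM) than in any (-)-JQ1 library (58.0 to 82.4 FPKM), and the group means of Prom1 and Msi1 are lower under (+)-JQ1 at each dose and time.

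**Figure D2:**
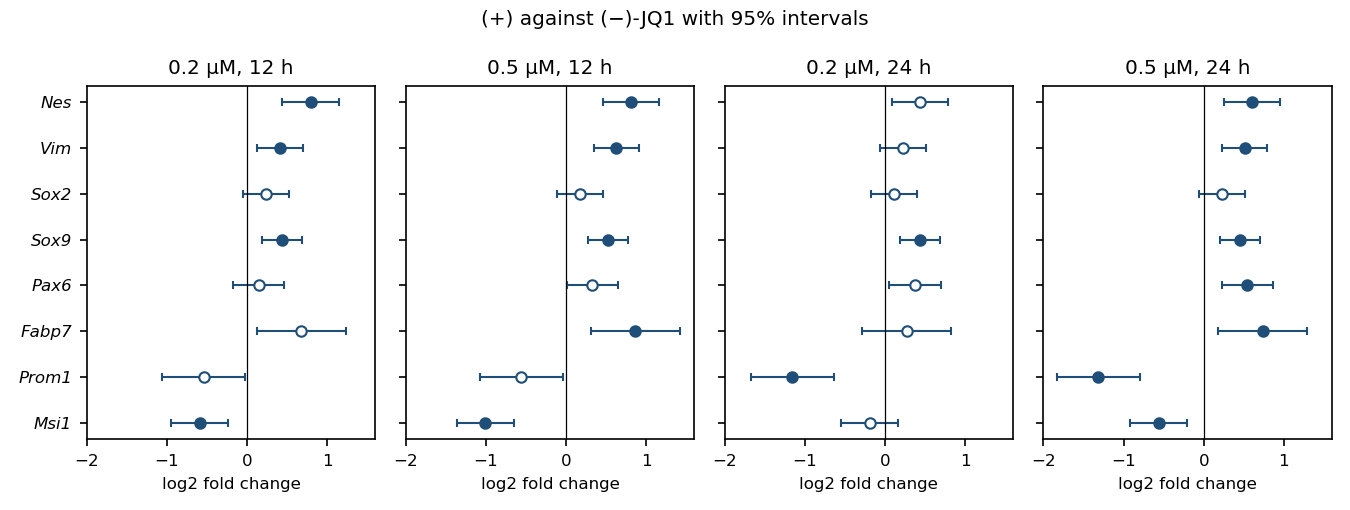
Log2 fold change of FPKM + 1, (+)-JQ1 against (-)-JQ1 (horizontal axes), for the 8 markers at each dose and time; points are estimates, bars 95% intervals, and filled points have an adjusted p under 0.05. Sox9 is filled in all 4 panels and Sox2 in none, and Prom1 and Msi1 lie left of 0 in all 4.

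Nes encodes nestin, the filament protein that most often defines neural stem cells. At 0.2 µM and 12 h its level was 58.1, 65.1 and 82.4 FPKM in the (-)-JQ1 libraries and 102, 114 and 143 FPKM in the (+)-JQ1 libraries. Under 0.5 µM for 12 h it was 58.0, 68.2 and 81.2 FPKM against 107, 110.3 and 149 FPKM. Both (+)-JQ1 groups lay wholly above their controls, and Nes rose by log2 0.79 ± 0.17 (SE, adjusted p = 0.00114) and 0.81 ± 0.17 (adjusted p = 0.000598), or 1.73-fold and 1.75-fold. At 24 h the (-)-JQ1 libraries had 60.6, 76.6 and 79.3 FPKM at 0.2 µM and 78.2, 78.2 and 63.1 FPKM at 0.5 µM. The (+)-JQ1 libraries had 107, 88.8 and 97.3 FPKM at 0.2 µM and 120.4, 119.6 and 95.7 FPKM at 0.5 µM. The groups were again apart at both doses. At 0.5 µM Nes rose by 0.61 ± 0.17 (adjusted p = 0.00672), and at 0.2 µM the log2 fold change was 0.44 ± 0.17, which did not pass (adjusted p = 0.0521, and 0.38 with adjusted p = 0.149 without the 2 libraries with high Mir5105).

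Vim encodes vimentin, the filament partner of nestin in radial glia. At 12 h it stood at 1119, 1273 and 1325 FPKM in the (-)-JQ1 libraries of 0.2 µM and 1431, 1745 and 1778 FPKM in the (+)-JQ1 libraries. With 0.5 µM for 12 h the values were 1144, 1310.1 and 1271 FPKM against 1674, 2101 and 2007 FPKM. Vim rose by log2 0.41 ± 0.14 at 0.2 µM (adjusted p = 0.0275) and by 0.63 ± 0.14 at 0.5 µM (adjusted p = 0.000822), with no overlap between groups. The call at 0.2 µM and 12 h was lost without the first or the second (-)-JQ1 library or the second or the third (+)-JQ1 library, with adjusted p values up to 0.125. After 24 h at 0.2 µM the (-)-JQ1 values of 1343, 1023 and 1269.5 FPKM overlapped the (+)-JQ1 values of 1505, 1498 and 1238 FPKM, and the log2 fold change of 0.23 did not pass (adjusted p = 0.213, and 0.26 with adjusted p = 0.213 without the 2 libraries with high Mir5105). After 24 h at 0.5 µM the levels were 1083, 999 and 895 FPKM against 1482, 1386 and 1359 FPKM, apart again, and Vim rose by 0.51 ± 0.14 (adjusted p = 0.0049).

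Sox9, a transcription factor of the SoxE family that maintains neural stem cells and is needed for glial fates, was the marker called in all 4 comparisons. At 0.2 µM and 12 h it had 103, 128 and 107 FPKM in (-)-JQ1 and 147, 164 and 147 FPKM in (+)-JQ1 libraries. Under 0.5 µM for 12 h it had 105, 121 and 102 FPKM against 164, 158 and 150.5 FPKM. At 24 h the values were 83.3, 108 and 111 FPKM against 145, 116 and 151 FPKM at 0.2 µM. The groups were apart in each case, also at 0.5 µM and 24 h, where 111, 112 and 114 FPKM stood against 163, 147 and 149.5 FPKM. The rise was of similar size throughout: log2 0.44 (adjusted p = 0.00828) and 0.52 (adjusted p = 0.00149) at 12 h and 0.44 (adjusted p = 0.00715) and 0.45 (adjusted p = 0.00525) at 24 h, in order of dose and each with an SE of 0.12. The value at 0.2 µM and 24 h was 0.43 (adjusted p = 0.00634) without the 2 libraries with high Mir5105. A fit on the 6 libraries of that comparison alone did not call it (adjusted p = 0.174).

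Sox2, the transcription factor most closely tied to the neural stem cell state, was not called at any dose or time. At 12 h its groups were nonetheless apart: 205, 209 and 199 FPKM in (-)-JQ1 against 233, 233 and 255 FPKM in (+)-JQ1 at 0.2 µM, and 207, 204 and 192 FPKM against 229.6, 233 and 218 FPKM at 0.5 µM. At 24 h they overlapped, with 223, 310.1 and 259.7 FPKM against 323, 254 and 276 FPKM at 0.2 µM and 326, 306 and 236 FPKM against 368, 369 and 277 FPKM at 0.5 µM. The log2 fold changes were 0.23 and 0.17 at 12 h and 0.11 and 0.22 at 24 h, and the 95% intervals reached no higher than 0.52. Without the 2 libraries with high Mir5105 the value at 0.2 µM and 24 h was 0.07 (adjusted p = 0.744). Reads of Sox2ot, a noncoding gene on the same strand that overlaps Sox2 in GENCODE M21, could be counted with either gene, and Sox2ot itself was listed at 7.77 to 16.9 FPKM.

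Pax6, which gives the dorsal cortex its identity and drives neurogenesis, separated the enantiomers most at the later time and the higher dose. At 12 h its groups overlapped, with 19.9, 20.5 and 16.3 FPKM in (-)-JQ1 against 20.9, 24.8 and 17.5 FPKM in (+)-JQ1 at 0.2 µM and 18.8, 19.6 and 16.4 FPKM against 22.4, 28.7 and 19.03 FPKM at 0.5 µM. The log2 fold changes there were 0.14 (adjusted p = 0.549) and 0.33 (adjusted p = 0.1), and they ranged from 0.02 to 0.26 and from 0.17 to 0.46 when 1 library was left out. The value at 0.5 µM and 12 h passed without the third (+)-JQ1 library (adjusted p = 0.0351), with library weights (adjusted p = 0.0324) and with median-of-ratios scaling (adjusted p = 0.0363). After 24 h at 0.2 µM the values were 19.5, 25.7 and 19.3 FPKM against 31.0, 23.1 and 30.4 FPKM, still overlapping, and the log2 fold change of 0.38 did not pass (adjusted p = 0.0648, and 0.45 with adjusted p = 0.0575 without the 2 libraries with high Mir5105). After 24 h at 0.5 µM every (+)-JQ1 library, with 33.6, 35.1 and 33.6 FPKM, exceeded every (-)-JQ1 library, with 24.4, 24.4 and 20.7 FPKM, and Pax6 rose by 0.54 ± 0.15 (adjusted p = 0.00741). Pax6os1, on the opposite strand of the locus, was at 0.136 FPKM or less.

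Fabp7, the lipid carrier of radial glia and young astrocytes, was the most variable of the abundant markers, with a median coefficient of variation within groups of 20.8%. At 12 h its level was 1702, 1318 and 1612 FPKM in (-)-JQ1 against 2883, 1875 and 2744 FPKM in (+)-JQ1 at 0.2 µM. It was 1669, 1410.0 and 1626 FPKM against 3195, 2490.2 and 2918 FPKM at 0.5 µM. The groups were apart at both doses. Fabp7 rose by log2 0.87 ± 0.27 at 0.5 µM (adjusted p = 0.0131), and the log2 fold change of 0.68 ± 0.27 at 0.2 µM did not pass (adjusted p = 0.0632). The call at 0.5 µM was lost without the first (+)-JQ1 library (adjusted p = 0.0525) or the second (-)-JQ1 library (adjusted p = 0.0504). Leaving out 1 library gave adjusted p values from 0.0346 to 0.202 at 0.2 µM. With the library number as a replicate block the value at 0.2 µM passed (adjusted p = 0.0482), as it did without the 2 libraries with high Mir5105 (adjusted p = 0.0263).

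At 24 h the Fabp7 groups overlapped. The values at 0.2 µM were 3245, 2468 and 2247 FPKM in (-)-JQ1 and 2984, 4859 and 2180.5 FPKM in (+)-JQ1 libraries. The 4859 FPKM came from the second (+)-JQ1 library, which has high Mir5105. The log2 fold change was 0.27 (adjusted p = 0.467), 0.12 without both libraries with high Mir5105 and -0.04 without that library alone. At 0.5 µM the values were 2343, 2664 and 1479.7 FPKM against 4096, 4166 and 2507 FPKM, and Fabp7 rose by 0.74 ± 0.27 (adjusted p = 0.0329). That call was lost without the first or the second (+)-JQ1 library or the third (-)-JQ1 library (adjusted p up to 0.19). A fit on only the libraries compared did not call it either (adjusted p = 0.0668).

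Prom1 encodes prominin-1, which sits in the apical membrane and cilia of stem cells and is widely used to sort them. At 24 h it had the most negative fold change of the 8, while at 12 h that was Msi1. At 0.2 µM and 12 h this order depends on the 1 added to FPKM: with 0.01 added, Prom1 was the lowest, at -0.69. The values at 0.2 µM and 12 h were 6.35, 4.84 and 3.86 FPKM in (-)-JQ1 and 4.62, 3.05 and 1.99 FPKM in (+)-JQ1 libraries. Those at 0.5 µM and 12 h were 6.05, 4.64 and 3.94 FPKM against 4.02, 3.09 and 1.99 FPKM. The groups overlapped at both doses, and the log2 fold changes of -0.54 (adjusted p = 0.119) and -0.56 (adjusted p = 0.0829), each with an SE of 0.25, did not pass. With the library number as a replicate block the value at 0.2 µM passed (adjusted p = 0.0239).

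At 24 h the Prom1 groups separated. At 0.2 µM the (-)-JQ1 libraries had 12.4, 7.53 and 6.24 FPKM and the (+)-JQ1 libraries 2.61, 4.41 and 2.86 FPKM. At 0.5 µM they had 7.71, 7.48 and 5.35 FPKM and 2.22, 2.19 and 1.97 FPKM. Prom1 fell, with log2 fold changes of -1.15 ± 0.25 (adjusted p = 0.00116) and -1.31 ± 0.25 (adjusted p = 0.000235). The first is -1.07 (adjusted p = 0.00459) without the 2 libraries with high Mir5105. Because Prom1 is low, the pseudocount of 1 understates its change: with a pseudocount of 0.01 the values at 24 h were -1.38 and -1.66. At 12 h they were -0.69 and -0.72 in order of dose, and neither passed (adjusted p = 0.109 and 0.0746).

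Msi1 encodes musashi-1, an RNA-binding protein that holds back the translation of differentiation factors in stem cells. At 0.2 µM and 12 h its level was 46.9, 51.6 and 42.0 FPKM in (-)-JQ1 and 29.6, 37.9 and 25.6 FPKM in (+)-JQ1 libraries. With 0.5 µM for 12 h it was 45.8, 54.9 and 37.3 FPKM against 22.3, 26.1 and 18.5 FPKM. The (+)-JQ1 groups lay wholly below their controls, and Msi1 fell, with log2 fold changes of -0.59 ± 0.17 (adjusted p = 0.012) and -1.01 ± 0.17 (adjusted p = 6.9e-05). The call at 0.2 µM was lost without the second (-)-JQ1 library (adjusted p = 0.0564) or the third (+)-JQ1 library (adjusted p = 0.0761).

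At 0.2 µM and 24 h Msi1 had 69.2, 42.3 and 46.9 FPKM in (-)-JQ1 and 41.7, 51.3 and 43.0 FPKM in (+)-JQ1 libraries. The highest value of each group came from its library with high Mir5105, and the log2 fold change was -0.19 (adjusted p = 0.423), -0.07 without both of these libraries and 0.02 without the first (-)-JQ1 library alone. The levels at 0.5 µM and 24 h were 47.7, 48.7 and 50.8 FPKM against 32.7, 31.2 and 34.7 FPKM, apart again, and Msi1 fell, with a log2 fold change of -0.56 ± 0.17 (adjusted p = 0.0119).

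Counted by separation instead of by the test, 5 markers had (+)-JQ1 groups wholly above the control at 12 h at either dose (Nes, Vim, Sox2, Sox9 and Fabp7), and 1, Msi1, wholly below. Over all tested genes 16.8% were above and 30.2% below at 0.2 µM, and 20.7% above and 37.5% below at 0.5 µM. At 24 h and 0.2 µM, Nes and Sox9 were above and Prom1 below (11.7% and 22.3% of all genes). At 24 h and 0.5 µM, Nes, Vim, Sox9 and Pax6 were above and Prom1 and Msi1 below (18.7% and 29.4% of all genes). The split over all genes depends on the scaling: with FPKM scaled by the median of ratios, 2724 genes passed upward and 2958 downward at 0.5 µM and 24 h, in place of 1893 and 3380, and the median log2 fold change of all genes at 0.5 µM and 12 h moved from -0.10 to 0.00. Under that scaling the 8 markers kept their directions in all 4 comparisons, and Nes, Vim and Pax6 also passed at 0.2 µM and 24 h (log2 0.54, 0.33 and 0.47), which makes 5 called members there.

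The mean of the 4 differences between enantiomers, a comparison added after the data were seen, gives the most precise value for each marker. All 8 passed in it, 6 up and 2 down, while 61.3% of all tested genes passed (23.1% up and 38.2% down). Nes was higher by 0.66, with a 95% interval from 0.49 to 0.84. Fabp7 was higher by 0.64 (0.36 to 0.92), Sox9 by 0.46 (0.34 to 0.59), Vim by 0.44 (0.30 to 0.58) and Pax6 by 0.35 (0.19 to 0.51). Sox2 was the smallest, at 0.19 (0.04 to 0.33, adjusted p = 0.0236), a rise of 1.14-fold. Msi1 was lower, at -0.59 (-0.77 to -0.41), and Prom1 at -0.89 (-1.15 to -0.63), or 0.67-fold and 0.54-fold. Leaving out any 1 of the 24 libraries kept all 8 calls, though the adjusted p of Sox2 then reached up to 0.0492. The fit takes the 24 libraries as independent. Groups may share preparations, so these intervals may be too narrow.

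The same-dose comparisons raise the question whether the response of the markers depends on dose or time. The difference between the effects at 0.5 and 0.2 µM was not called for any of the 8 markers, at 12 h (0.0435% of all genes called) or at 24 h (0.29%), and 0 of 8 had an unadjusted p under 0.05 at either time. So few genes were called in the whole series that a like response at both doses is not shown. The estimated fall of Msi1 was larger at 0.5 than at 0.2 µM at both times. Within (+)-JQ1, 0.5 against 0.2 µM called 0 of 8 at 12 h (0.645% of all genes) and 0 of 8 at 24 h (2.15%), with 1 unadjusted p under 0.05 at each time. That marker was Msi1, named after its values were seen, with a log2 difference of -0.45 at 12 h (adjusted p = 0.434) and -0.45 at 24 h (adjusted p = 0.203), with 95% intervals of -0.81 to -0.10 and -0.80 to -0.09. Within (-)-JQ1 the dose called 0 of 8 at 12 h (0% of all genes) and 0 of 8 at 24 h (0.00725%), with 0 and 1 unadjusted p under 0.05, and the 8 log2 differences at 12 h lay between -0.04 and 0.03.

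The difference between the effects at 24 and 12 h was likewise not called for any marker, at 0.2 µM (0.0217% of all genes called) or at 0.5 µM (0.326%). Prom1 had the widest gap between the times at both doses, with a further -0.62 at 0.2 µM (95% interval -1.35 to 0.12) and -0.75 at 0.5 µM (-1.49 to -0.02, adjusted p = 0.719), the latter being the 1 unadjusted p under 0.05. Msi1 leaned the other way, by 0.40 (-0.10 to 0.91) and 0.44 (-0.06 to 0.95, adjusted p = 0.872). Sox9 was close to 0 at both doses, at 0.00 (-0.35 to 0.36) and -0.08 (-0.43 to 0.28). These intervals leave room for changes of the size of the effects themselves, so a like response at both times is not shown.

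Between 12 and 24 h, Sox2 and Pax6 had calls that rested on most of the libraries compared. From 12 to 24 h Sox2 rose under 0.5 µM of either enantiomer, by log2 0.56 ± 0.14 in (+)-JQ1 (adjusted p = 0.0234) and 0.51 ± 0.14 in (-)-JQ1 (adjusted p = 0.0312). Under 0.2 µM it differed by 0.24 in (+)-JQ1 (adjusted p = 0.439) and 0.36 in (-)-JQ1 (adjusted p = 0.125), which did not pass. Pax6 rose under 0.5 µM (+)-JQ1, by 0.54 ± 0.15 (adjusted p = 0.0484), and differed by 0.33 under 0.5 µM (-)-JQ1 (adjusted p = 0.245). In all, 0 of 8 markers passed under 0.2 µM (+)-JQ1 (3.3% of all genes), 2 under 0.5 µM (+)-JQ1 (4.21%), 0 under 0.2 µM (-)-JQ1 (6.08%) and 1 under 0.5 µM (-)-JQ1 (5.19%), where 2, 4, 3 and 3 had an unadjusted p under 0.05. On leaving out any of 5 of the 6 libraries of each comparison, the Sox2 call under either enantiomer and the Pax6 call were lost, and each adjusted p then lay between 0.051 and 0.243. All 3 were also lost with only the libraries compared, and the Pax6 call with median-of-ratios scaling (adjusted p = 0.0841). Vim differed by -0.45 under 0.5 µM (+)-JQ1 (adjusted p = 0.0657, and -0.49 with adjusted p = 0.0141 under median-of-ratios scaling). Msi1 differed by 0.54 under (+)-JQ1 at 0.2 µM (adjusted p = 0.0907) and 0.55 at 0.5 µM (adjusted p = 0.0692). Comparisons over time share their libraries with the comparisons of enantiomers.

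**Figure D3:**
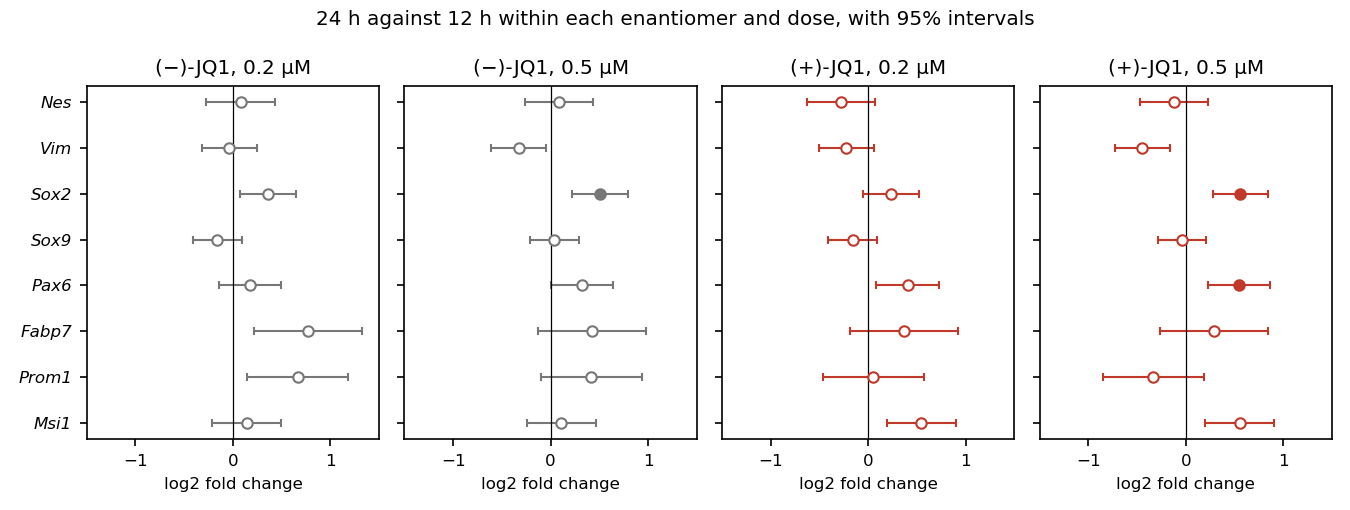
Log2 fold change of FPKM + 1 from 12 to 24 h (horizontal axes) for the 8 markers within each enantiomer and dose; points are estimates, bars 95% intervals, and filled points have an adjusted p under 0.05. Sox2 is filled under 0.5 µM of both enantiomers (0.51 and 0.56) and Pax6 under 0.5 µM (+)-JQ1 (0.54).

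Libraries of 1 group differed in a way that ran across groups at 12 h. In all 4 groups of that time the third library had the highest Nes (82.4, 143, 81.2 and 149 FPKM) and the lowest Prom1 (3.86, 1.99, 3.94 and 1.99 FPKM), and the first library had the lowest Nes and the highest Prom1. Over all 24 libraries Nes and Prom1 had a Pearson r of -0.81 on the log2(FPKM + 1) scale, and -0.72 after the group means were taken out. Nes and Msi1 had -0.83 and -0.68, and Prom1 and Msi1 0.70 and 0.57. Sox9 and Fabp7, by contrast, had 0.32 over all libraries and -0.63 within groups. The 24 points share preparations and 2 libraries with high Mir5105, so these values are a description.

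Relatives of the markers from the same gene families were called in both directions. Of 15 relatives from the same gene families 11 were tested, and 3, 4, 2 and 3 rose and 4, 4, 3 and 4 fell at 0.2 µM and 12 h, 0.5 µM and 12 h, 0.2 µM and 24 h and 0.5 µM and 24 h, with medians of 0.10, -0.01, -0.02 and -0.09. The shares of all tested genes in that order were 8.23%, 12.2%, 11% and 13.7% up and 19.6%, 26.1%, 21.8% and 24.5% down, against which these and the list counts that follow are to be read; 2 of 11 up and 3 of 11 down at 0.2 µM and 24 h are not far from them. Fabp5, a fatty acid carrier related to Fabp7, fell in all 4, with log2 fold changes from -1.26 to -2.31, and its mean at 0.5 µM and 24 h was 366 ± 54.8 FPKM (SD, n = 3) in (-)-JQ1 and 72.5 ± 4.41 FPKM in (+)-JQ1. Sox8, a SoxE factor like Sox9, fell in all 4, most at 0.5 µM and 24 h (-1.68), and Sox10, the SoxE factor of the oligodendrocyte lineage, fell in 3 of 4, with -1.37 at 0.5 µM and 24 h (adjusted p = 1.1e-05) and -0.42 at 0.2 µM and 24 h (adjusted p = 0.112). Msi2, Gfap and Sox21 were named after their values were seen. Msi2, the close paralogue of Msi1, rose in all 4, by 0.34, 0.37, 0.48 and 0.49. Gfap, the filament protein of astrocytes, fell in all 4 (-0.65 to -1.07), and Nes and Vim rose in 3 of 4. Sox21, a repressor related to Sox2, rose in all 4 (0.56 to 0.90). The difference between a marker and its relative was not tested.

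**Figure D4:**
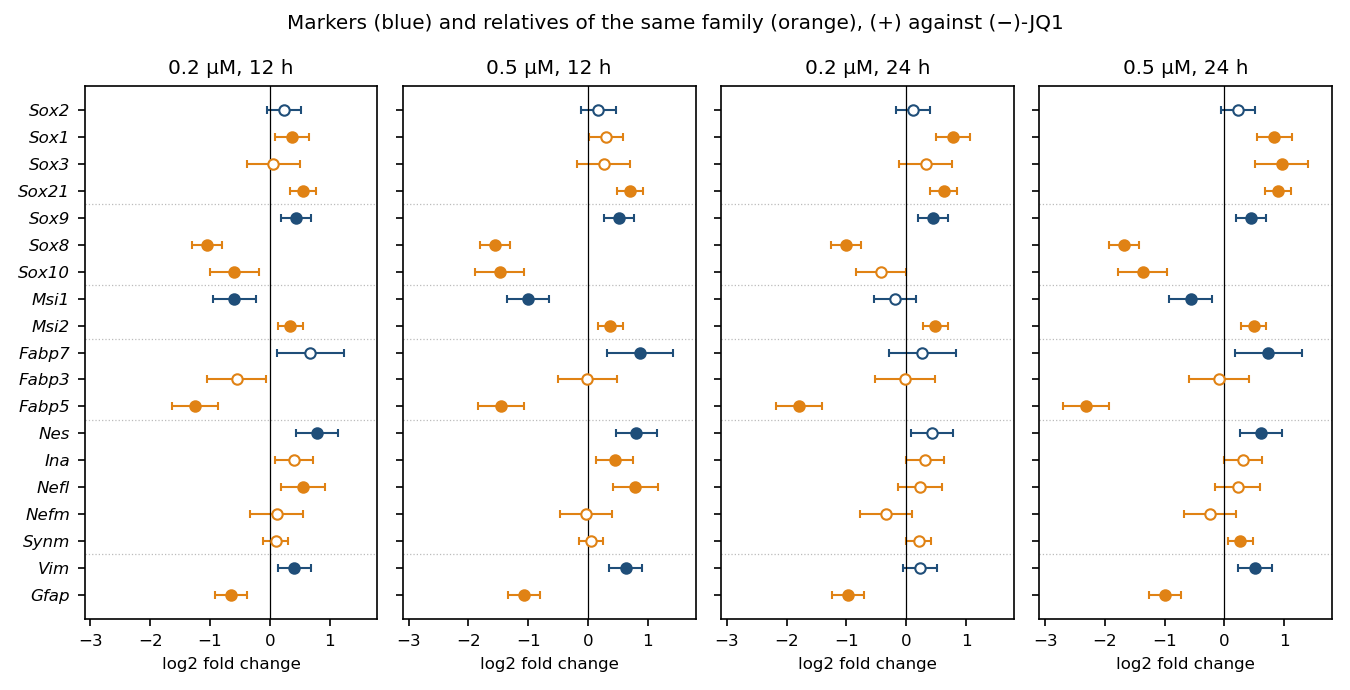
Log2 fold change of FPKM + 1, (+)-JQ1 against (-)-JQ1 (horizontal axes), for markers in blue and tested relatives of the same families in orange, at each dose and time; points are estimates, bars 95% intervals, and filled points have an adjusted p under 0.05. Sox8, Fabp5 and Gfap lie left of 0 in all 4 panels, where Sox9, Fabp7, Nes and Vim lie right of it, and Msi1 and Msi2 lie on opposite sides.

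A list of 20 other neural stem and radial glia genes was tested in full. In it 5, 5, 8 and 12 genes rose and 2, 3, 1 and 2 fell, in the order of comparisons given for the relatives, with medians of 0.09, 0.22, 0.35 and 0.51. Hes5, the Notch effector that keeps radial glia from differentiating, rose in all 4, by 0.89, 1.08, 1.06 and 1.27. Sox3, a SoxB1 factor like Sox2, rose by 0.96 at 0.5 µM and 24 h (adjusted p = 0.00107) and did not pass elsewhere (0.06 to 0.33). Tnc, the matrix protein tenascin-C of radial glia, fell in all 4, with -1.15, -1.63, -1.13 and -2.17. Under 0.5 µM and 24 h its mean was 34.5 ± 1.20 FPKM (SD, n = 3) in (-)-JQ1 and 7.06 ± 2.09 FPKM in (+)-JQ1. Sox1, another SoxB1 factor, is named after its values were seen: it rose at 24 h by 0.79 and 0.84, while Sox2 did not pass. In the fit on the 6 libraries of 0.2 µM and 24 h alone, 1 of the 20 rose in place of 8.

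**Figure D5:**
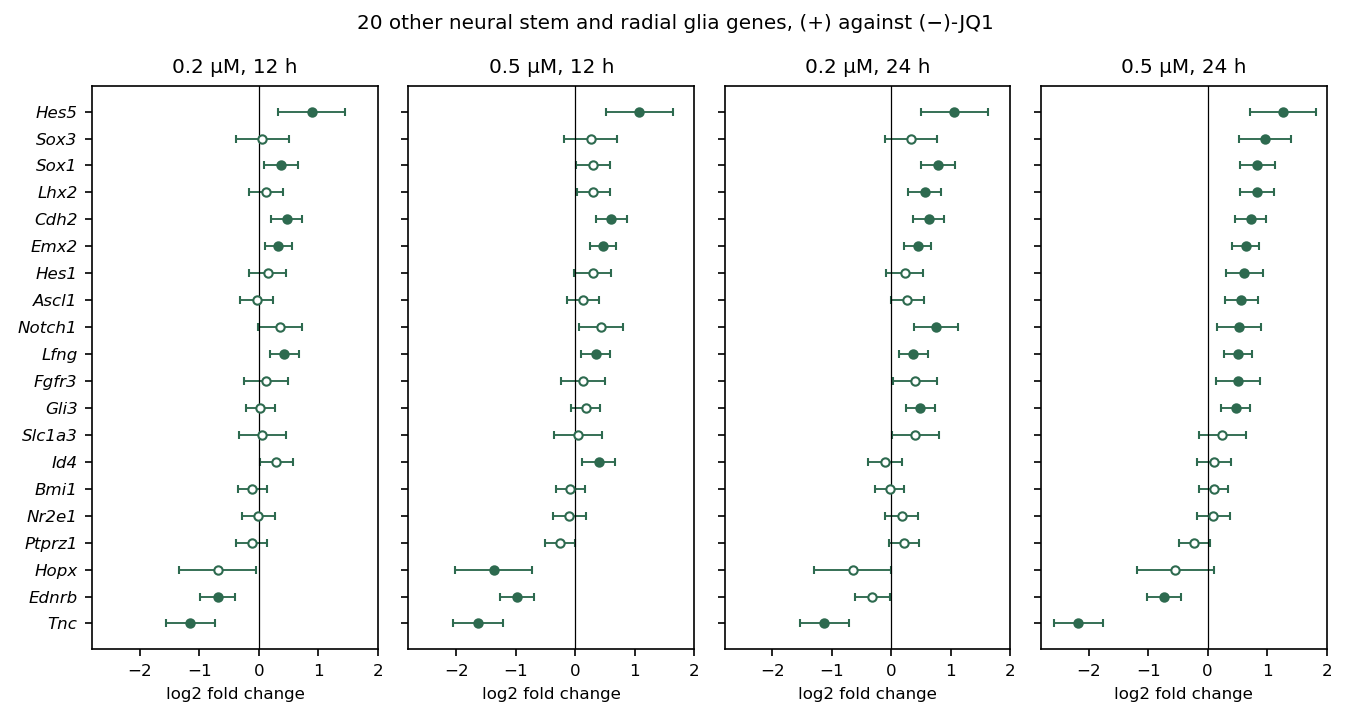
Log2 fold change of FPKM + 1, (+)-JQ1 against (-)-JQ1 (horizontal axes), for 20 other neural stem and radial glia genes at each dose and time, ordered by the value at 0.5 µM and 24 h; points are estimates, bars 95% intervals, and filled points have an adjusted p under 0.05. At 0.5 µM and 24 h 12 genes, led by Hes5 at 1.27, are filled to the right of 0, and Ednrb and Tnc are filled to the left.

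Markers of what these cells turn into, and of division, moved beside the 8 genes. Of 14 tested astrocyte genes 7, 10, 7 and 8 fell and 0 rose, led by S100b (-4.01 at 0.5 µM and 24 h), Aqp4 (-3.39) and Agt (-1.82). The other 7, 4, 7 and 6 were not called, and at 0.5 µM and 24 h the list had a median of -0.51 and reached 0.41. The summed level of the 15 astrocyte genes overlapped, with 2525 to 6282 FPKM in (+)-JQ1 and 3462 to 6279 FPKM in (-)-JQ1 libraries. Of 13 tested oligodendrocyte lineage genes 11, 12, 10 and 12 fell and 0 rose, led by Gpr17 (-5.38), Enpp6 (-5.31) and Mbp (-3.30). Of the markers that astrocytes also make, Sox9 rose in all 4 comparisons, Vim in 3 (not at 0.2 µM and 24 h) and Fabp7 in 2 (at 0.5 µM). Of 16 proliferation genes 2 fell and 1 rose at 12 h at each dose, and at 24 h 11 fell and 0 rose at 0.2 µM and 12 fell and 1 rose at 0.5 µM, led by Top2a (-1.78), Mcm3 (-1.69) and Mcm5 (-1.62). Prom1 was called at 24 h and not at 12 h, although with the replicate block it passed at 12 h at both doses (adjusted p = 0.0239 and 0.0141). The value for 0.5 µM and 12 h passed also with library weights (adjusted p = 0.0122) and without the libraries with high Mir5105 (adjusted p = 0.0434). Its own difference between the times was not called, and the part of the proliferation genes in its values was not tested.

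Genes of the step after the radial glial cell had calls in both directions. Of 9 tested genes of basal progenitors and new cortical neurons 2, 3, 2 and 3 rose and 4, 5, 1 and 2 fell, and at 24 h the shares that fell were no higher than over all tested genes. Insm1, a zinc finger factor of delaminating progenitors, rose by 2.06 at 0.5 µM and 24 h, and Tubb3, a neuronal tubulin, by 1.07, while Dcx, a microtubule protein of migrating neurons, fell, with -0.98. Eomes, Neurog2 and Neurod1, the classic factors of cortical neurogenesis, stayed at or under 1.52, 1.56 and 1.59 FPKM in every library, against at least 16.3 FPKM for Pax6, which lies upstream of them in the embryo.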

How the data were processed

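Poly(A) RNA of 24 libraries was sequenced in single-end reads of 50 bases. Reads were aligned with TopHat2 to mm9 after FastQC, per the submitters' processing notes, and the authors deposited 1 value per gene and library, taken here as FPKM. The program that computed the values, the annotation and the read depth are not given in the sources used here, and the labels name no strand-marking step. In GENCODE M21, Gm42716 (same strand) and Gm16401 (opposite strand) overlap Prom1, and 4930430O22Rik (opposite strand) overlaps Msi1. None of them had an entry here. Their reads could be counted with the marker, which was not tested. Of 26694 entries per library, 58 of 29 repeated symbols were left out. Summed FPKM was 432235 to 871177.

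From the deposited FPKM, log2(FPKM + 1) was fitted with limma 3.58.1 in R 4.3.3, with 1 mean per group, 24 libraries and 16 residual degrees of freedom, trend and robust settings, over the 13801 genes that reached 1 FPKM in 3 or more libraries. The fit was run on simulated data, drawn independently for each gene and library, to check that known changes were returned. Such draws hold no shared preparations, so they give no error rate for these data. 16 comparisons were made, and 1 was added after the data were seen. Alternatives were pseudocounts of 0.1 and 0.01, no filter, median-of-ratios scaling, leaving out libraries, library weights, a replicate block and only the libraries compared.

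The members and the gene lists were chosen with earlier results of these data known. All 8 members are named in each main comparison. Of each other list, the rule names up to 3 genes called in any comparison of enantiomers, those with the largest change at 0.5 µM and 24 h. For the lists of cells outside the neural lineage these were Acta2 (log2 fold change -2.29 at that dose and time), Pdgfrb (-1.73), Dcn (-0.95) and Kdr (-1.33). For ependyma and choroid plexus they were Foxj1 (-2.03) and Rsph1 (-0.98). Also named are the 2 genes most like each member by Pearson r, and Hexim1 and Myc as readouts of the inhibitor.

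The labels give 3 independent preparations but do not say that a library's number marks one. At 0.2 µM and 12 h same-numbered libraries had r of 0.105, 0.133 and 0.112 between deviations from the group means. At 0.5 µM r was -0.023, 0.358 and 0.179 at 12 h and 0.046, 0.166 and 0.292 at 24 h. At 0.2 µM and 24 h it was -0.196, -0.345 and -0.004, and the first 2 of these pairs each hold a library with high Mir5105. The numbers were therefore used as a block in an alternative, and blocked values are printed where they change a call at 12 h. P-values of the main fit set a difference of group means against the spread within groups, taken over all 24 libraries as if they were independent.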

Additional observations from a re-analysis of the deposited data

How the results depend on the processing

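The direction of each marker in the 4 comparisons of enantiomers was the same under both other pseudocounts, without the filter, with median-of-ratios scaling, with library weights, with the replicate block and without the 2 libraries with high Mir5105. It turned in 3 cases at 0.2 µM and 24 h when 1 library was left out: Sox2 to -0.0037 and Msi1 to 0.019 without the first (-)-JQ1 library, and Fabp7 to -0.039 without the second (+)-JQ1 library. Over all libraries left out in turn, Sox2 ranged from -0.0037 to 0.23, Fabp7 from -0.039 to 0.54 and Msi1 from -0.33 to 0.019 there. The cause was not tested. At 0.2 µM and 24 h, 2 markers were called, and 5 with median-of-ratios scaling, 4 with the replicate block, 1 with only the libraries compared and 2 to 4 when 1 library was left out. Leaving out 1 library gave 2 to 5 calls at 0.2 µM and 12 h (4 in the full set), 4 to 6 at 0.5 µM and 12 h and 6 to 7 at 0.5 µM and 24 h.

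For 24 against 12 h, (+)-JQ1 at 0.2 µM had 0 calls, 1 with library weights and 0 to 1 when 1 library was left out. (+)-JQ1 at 0.5 µM had 2 calls, 1 without the filter, 4 without the libraries with high Mir5105, 4 with library weights, 0 with only the libraries compared, 2 with median-of-ratios scaling (Vim in place of Pax6) and 0 to 1 when 1 library was left out. (-)-JQ1 at 0.2 µM had 0 calls, and 1 both without the libraries with high Mir5105 and with the replicate block. (-)-JQ1 at 0.5 µM had 1 call, 2 with library weights, 0 with only the libraries compared and 0 to 1 when 1 library was left out.

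With the replicate block Prom1 also passed at 0.5 µM and 12 h (adjusted p = 0.0141), Nes (adjusted p = 0.0434) and Pax6 (adjusted p = 0.0345) at 0.2 µM and 24 h, and Msi1 from 12 to 24 h under 0.5 µM (+)-JQ1 (adjusted p = 0.0462). Where samples share only a number, this is no sign of a stronger effect. Without the filter the Fabp7 call at 0.5 µM and 24 h was lost (adjusted p = 0.0505). Read depth is not known here, so no interval for counting error can be given, and 3 libraries a group limit what can be called.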

Other observations

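Some genes followed a marker closely over the 24 libraries. Among 9147 tested genes with a mean of at least 5 FPKM, Sox9 was most like Sox11, a SoxC factor of newborn neurons (Pearson r of log2(FPKM + 1) 0.949), and Peg3as (0.947). Msi1 was most like Ndst1, an enzyme of heparan sulfate synthesis (0.960), and Slc22a23 (0.955). Nes was most like Serinc3 (0.950) and Stim2 (0.926), Vim like Nrbp1 (0.934) and Gadd45g (0.933), and Fabp7 like Rnf149 (0.934) and Tmem59 (0.919). Sox2 was most like Btbd1 (0.936) and Vamp4 (0.930), Pax6 like Prkca (0.924) and Wwtr1 (0.895), and Prom1 like Pld2 (0.941) and Kcne1l (0.925). These genes were picked for the likeness, the libraries share groups and preparations, and the values are a description.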
